A study of Mus musculus with 4 samples.

Results

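This account covers 9 cytokine genes in primary mouse keratinocytes, namely tumour necrosis factor (Tnf), the colony-stimulating factors Csf1, Csf2 and Csf3, and Il6, Lif, Il24, Il23a and Tslp. They were taken by gene symbol from the array annotation, and 13 probe sets carry 1 of these symbols. The array as a whole names 18193 genes by 34945 probe sets with a single symbol. A floor of 24.9 units was set on the mean over the arrays. It was reached by 7 of the 9 genes, which could be tested, and not by Csf2 and Il6.

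Keratinocytes, the epithelial cells that form the epidermis, were grown in culture from newborn C57BL/6 mice that were either labelled p38a-KO or wild type (WT). The groups were p38a-KO cells 4 h after 75 mJ/cm2 of ultraviolet B (UVB), p38a-KO cells without irradiation, WT cells 4 h after the same dose, and WT cells without irradiation. Each group has 1 array, so no value below has a replicate error and the number of arrays limits every comparison. The labels name neither the deleted part of the p38alpha gene, nor a Cre driver, nor the number of animals behind each culture.

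After UVB, Tnf, Csf2, Lif and Il24 had lower signal in p38a-KO than in WT cells, and so did Tslp. Tnf was 2.37-fold lower, Il24 2.63-fold, Lif 1.82-fold, Tslp 1.71-fold and Csf2 at least 2.30-fold lower. Without irradiation p38a-KO cells were 1.03-fold to 1.27-fold higher for 6 of the 7 genes that could be tested, and at least 1.30-fold higher for Tnf, whose WT value lay below the floor. Csf2 lay below the floor in both genotypes without irradiation, at 2.49 units in p38a-KO and 23.6 units in WT cells, and gives no fold there. Tnf, Lif and Il24 had more signal after UVB than before it in WT cells, while in p38a-KO cells Il24 and Tslp had less as deposited. Csf1 fell after UVB in both genotypes, and Il23a had nearly the same response in both.

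Cytokines are secreted proteins through which cells of a tissue signal to each other, and irradiated keratinocytes are a known source of them in skin. TNF acts through the receptors TNFR1 and TNFR2 on NF-kB and MAP kinases. The colony-stimulating factors guide growth of macrophages, granulocytes and their precursors, and the other members signal through JAK kinases and STAT factors. p38alpha, encoded by Mapk14, is a stress-activated MAP kinase known to prolong the life and translation of many cytokine mRNAs. The comparison of genotypes after UVB therefore asks which of these transcripts differ when cells carry the p38a-KO label.

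The promoters of 4 of the genes are shown because these genes differ in their response: Tnf, Csf2 and Lif had most signal in irradiated WT cells, and Csf1 was low in irradiated cells of both genotypes. The sequences are from RefSeq on GRCm38.p6, in a search of members that left out part of the genome and found 5 of the 9. They give the 250 bases before the annotated start, 5′ to 3′ on the gene's strand. Tnf lies at chr17:35202008-35202257 on the minus strand, Csf2 at chr11:54249900-54250149 on the minus strand, Lif at chr11:4257318-4257567 on the plus strand and Csf1 at chr3:107760470-107760719 on the minus strand. Capitals mark the motifs found on either strand.
Tnf: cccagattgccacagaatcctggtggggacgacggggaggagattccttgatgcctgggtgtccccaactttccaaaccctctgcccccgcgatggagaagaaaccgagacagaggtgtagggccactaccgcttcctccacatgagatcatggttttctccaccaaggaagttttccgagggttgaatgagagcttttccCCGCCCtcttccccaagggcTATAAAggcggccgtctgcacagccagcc
Csf2: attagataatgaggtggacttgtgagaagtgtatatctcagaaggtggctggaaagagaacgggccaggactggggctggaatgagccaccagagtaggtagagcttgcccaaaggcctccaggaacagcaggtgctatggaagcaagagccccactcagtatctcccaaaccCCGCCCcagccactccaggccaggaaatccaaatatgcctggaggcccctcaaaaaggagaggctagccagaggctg
Lif: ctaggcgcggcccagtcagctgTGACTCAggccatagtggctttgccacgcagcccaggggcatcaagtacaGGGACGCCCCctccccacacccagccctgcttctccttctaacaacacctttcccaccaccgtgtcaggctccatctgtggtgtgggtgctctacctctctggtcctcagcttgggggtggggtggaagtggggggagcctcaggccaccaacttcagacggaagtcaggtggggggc
Csf1: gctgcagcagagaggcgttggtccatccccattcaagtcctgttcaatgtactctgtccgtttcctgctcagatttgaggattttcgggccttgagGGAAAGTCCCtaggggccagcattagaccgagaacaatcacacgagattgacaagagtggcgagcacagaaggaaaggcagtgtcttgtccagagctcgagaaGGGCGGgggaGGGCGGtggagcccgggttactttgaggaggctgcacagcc
The letters searched were TGANTCA for AP-1, TGACGTCA for the cyclic AMP response element, TATAAA for the TATA box, GGGCGG for the GC box, and the NF-kB consensus. None of these matches overlapped another. Tnf held a TATA box from position -29 to -24 and a GC box from -49 to -44, counted from the start. Csf2 held 1 GC box, from -77 to -72. Lif held an AP-1 match from -228 to -222 and an NF-kB match from -178 to -169. Csf1 held an NF-kB match from -154 to -145 and 2 GC boxes. Of all 32851 promoters of this length in the table, 7.25% held the NF-kB consensus, 6.75% the AP-1 letters, 1.55% the cyclic AMP element, 12.4% the TATA box and 32.7% the GC box. These matches are descriptions of a short window, in which distal elements are not seen.

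Signal is the MAS5 intensity of a probe set on a linear scale, and the median over the array was 18.7 units in irradiated p38a-KO cells, 34.5 in unirradiated p38a-KO cells, 18.7 in irradiated WT cells and 30.3 in unirradiated WT cells. The median log2 difference after UVB over the 11379 genes tested was -0.82 in p38a-KO and -0.70 in WT cells, whereas 18 hybridisation spike-in probe sets had medians of 0.12 and 0.01. The genotypes had a median difference of 0.05 after UVB and 0.16 without irradiation. Mapk14 was not lower in p38a-KO cells on its brightest probe set, at 646.8 and 1449 units with and without UVB, against 292.5 and 985.4 units in WT cells. Probe sets of this array type lie near the 3′ end of a transcript and need not cover the deleted part. The samples are called KO-labelled from here on, and each genotype direction rests on the label. Keratinocyte identity was checked on Krt5 and Krt14, keratins of basal cells, which were at 11820 units or more on every array. The other keratinocyte markers varied: Trp63, a basal transcription factor, read 235.5 and 1931 units in irradiated and unirradiated KO-labelled cells and 150.5 and 1676 units in irradiated and unirradiated WT cells. Itga6, an integrin of basal cells, fell by 1.21 in limma's irradiation term, and Krt1 and Krt10, keratins of differentiating cells, were 1.29 and 1.37 higher on the log2 scale in KO-labelled than in WT cells after UVB. Of the 6 keratinocyte markers measured, 3 fell after UVB and 2 were higher in KO-labelled cells by limma, and their part in the cytokine differences was not tested.

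Tnf (probe set 1419607_at) encodes the cytokine TNF. It read 40.4 units in irradiated and 32.4 units in unirradiated KO-labelled cells, and 95.9 units in irradiated and 7.77 units in unirradiated WT cells. The highest value was that of irradiated WT cells, and only unirradiated WT cells lay below the floor. With that value raised to the floor, the fold after UVB was 1.25 in KO-labelled cells and at least 3.85 in WT cells, where Tnf ranked 9 from the top of 11379 genes. In the limma fit of irradiation over both genotypes, Tnf rose by 1.13 on the log2 scale (SE 0.37, adjusted p = 0.0219), a coefficient that depends on the floor set for its lowest value. The response in KO-labelled cells minus that in WT cells was -1.63 or lower, rank 45 from the bottom. Without the array of irradiated WT cells, and with irradiation as the only factor, the coefficient was 0.51 (limma adjusted p = 0.39, within a range of 0.000808 to 0.405 over the alternatives).

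**Figure D1:**
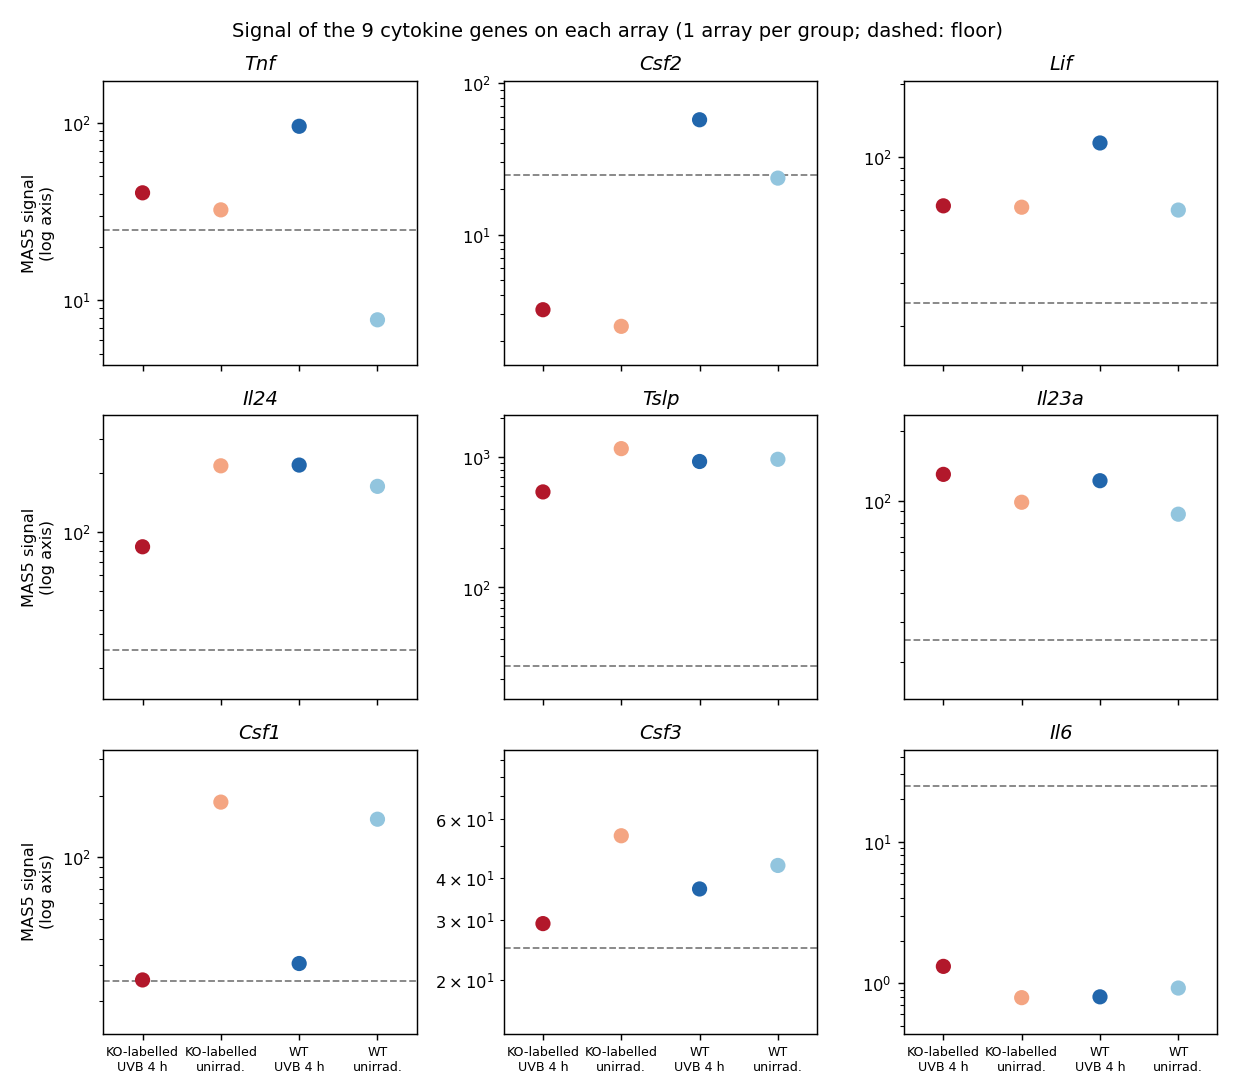
MAS5 signal (log axis) of each of the 9 genes by its brightest probe set, 1 point per array, in KO-labelled cells 4 h after UVB and unirradiated and in WT cells 4 h after UVB and unirradiated, with the floor of 24.9 units dashed. Tnf, Csf2 and Lif stand highest in irradiated WT cells, Il24 and Tslp lowest in irradiated KO-labelled cells, Csf1 is low in both irradiated samples, and Il6 lies below the floor on all 4 arrays.

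Csf2 (1427429_at) encodes GM-CSF, a growth factor of granulocytes, macrophages and dendritic cells. It read 3.20 and 2.49 units in irradiated and unirradiated KO-labelled cells, and 57.2 and 23.6 units in irradiated and unirradiated WT cells. Irradiated WT cells alone passed the floor, so Csf2 reached at least 2.30 times its unirradiated signal in WT cells, and in irradiated KO-labelled cells it was lower than in irradiated WT cells by the same bound. Both KO-labelled values lie below the floor and give no fold. With the floor at the 25th percentile, which both KO-labelled values still missed, KO-labelled minus WT was -1.33 or lower without irradiation and -2.61 or lower after UVB. The mean over the arrays, 21.6 units, kept it out of the limma fit.

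Csf1 encodes M-CSF, the growth factor of macrophages that also supports Langerhans cells, and has 4 probe sets. The brightest, 1460220_a_at, read 25.3 and 185.8 units in irradiated and unirradiated KO-labelled cells, and 30.4 and 153.4 units in irradiated and unirradiated WT cells. Both irradiated values were below both unirradiated ones, 7.35-fold lower in KO-labelled and 5.04-fold lower in WT cells. Csf1 fell by 2.61 on the log2 scale over both genotypes (SE 0.24, limma adjusted p = 1.85e-05). The size depended on the processing, at -1.64 with quantile normalization, -1.51 with median centring and -1.44 with the mean over its probe sets, and the limma adjusted p was 0.0571 without unirradiated KO-labelled cells. The next brightest, 1448914_a_at, read 67.7 and 156.3 units in KO-labelled cells and 46.0 and 116.7 units in WT cells, log2 differences of -1.21 and -1.34. Probe set 1425155_x_at, of a type that may cross-hybridise, gave smaller differences of -0.75 and -0.69, and 1425154_a_at went below the floor after UVB in both genotypes. All 4 probe sets were lower after UVB in both genotypes, but they disagreed on the size. They also disagreed on genotype after UVB, where KO-labelled minus WT was -0.27 for 1460220_a_at, 0.56 for 1448914_a_at and 0.16 for 1425155_x_at.

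**Figure D2:**
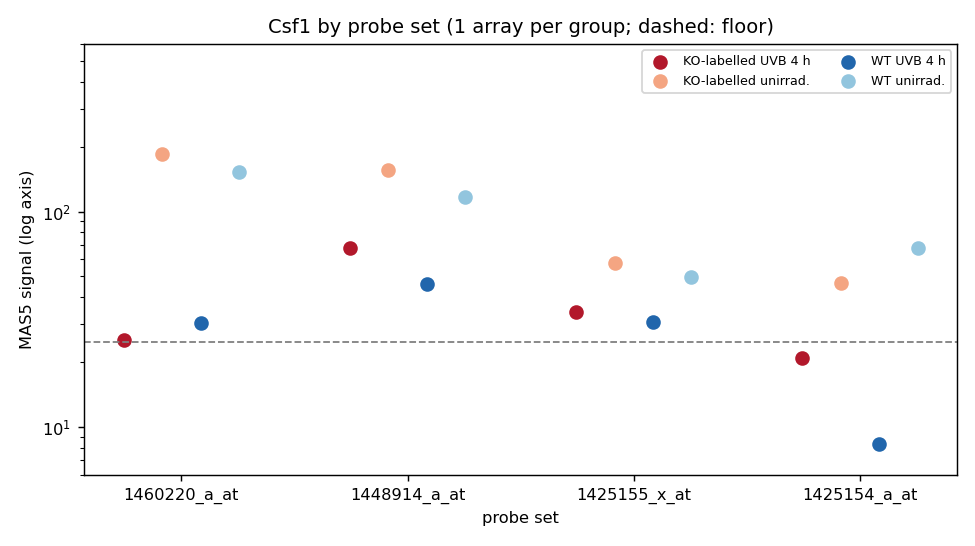
MAS5 signal (log axis) of the 4 Csf1 probe sets, 1 point per array, with KO-labelled and WT samples after UVB and unirradiated in different colours and the floor dashed. In each probe set both irradiated points lie below both unirradiated points, and the gap is widest in 1460220_a_at among the 3 that stay above the floor.

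Csf3 (1419427_at) encodes G-CSF, the main growth factor of neutrophils. It read 29.3 and 53.5 units in irradiated and unirradiated KO-labelled cells, against 37.2 and 43.7 units in irradiated and unirradiated WT cells. The irradiated samples were the lower ones, by 1.82-fold in KO-labelled and 1.17-fold in WT cells. The limma coefficient for irradiation was -0.55 (SE 0.28, adjusted p = 0.109), which did not pass.

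Lif and Il6 belong to the cytokine family that signals through the shared receptor chain gp130. Lif (1421207_at) read 62.7 and 61.9 units in irradiated and unirradiated KO-labelled cells, and 113.8 and 60.2 units in irradiated and unirradiated WT cells. Irradiated WT cells stood apart, and the other samples lay between 60.2 and 62.7 units. Lif was 1.89-fold higher after UVB in WT cells, rank 76 from the top, and 1.01-fold in KO-labelled cells. The limma coefficient was 0.47 (SE 0.26, adjusted p = 0.139). With median centring the response was 1.15 in KO-labelled and 1.99 in WT cells on the log2 scale, and the limma coefficient was 1.57 (adjusted p = 0.000603, the lowest of a range up to 0.933 over the alternatives). A second Lif probe set, 1450160_at, was below the floor on every array, with 10.2 and 6.87 units in KO-labelled and 9.21 and 2.72 units in WT cells. Il6 (1450297_at) was listed at 0.788 to 1.31 units on the 4 arrays, all below the floor, and gives no fold.

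Il24 (1426181_a_at) encodes a cytokine of the IL-20 group, which acts on keratinocytes themselves through receptors that hold the IL20RB chain. It read 84.1 and 219.0 units in irradiated and unirradiated KO-labelled cells, and 220.9 and 171.8 units in irradiated and unirradiated WT cells. Irradiated KO-labelled cells had the lowest value. Il24 was 2.60-fold lower after UVB in KO-labelled cells and 1.29-fold higher in WT cells, so the directions were opposite. The response in KO-labelled cells minus that in WT cells was -1.74, rank 26 from the bottom of 11379 genes. Over both genotypes the limma coefficient was -0.51 (SE 0.33, adjusted p = 0.197), an average of these opposite responses, and it was 0.52 with quantile normalization (adjusted p = 0.178, within a range of 0.00166 to 0.792 over the alternatives).

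Tslp (1450004_at), thymic stromal lymphopoietin, is an epithelial cytokine that acts on dendritic cells and type 2 immunity. It had the highest signal of the 9 genes, at 541.2 and 1163 units in irradiated and unirradiated KO-labelled cells, and 926.4 and 963.1 units in irradiated and unirradiated WT cells, though signals of different probe sets are not comparable as levels. Irradiated KO-labelled cells alone were low. Tslp was 2.15-fold lower after UVB in KO-labelled cells and 1.04-fold lower in WT cells. It fell by 0.58 on the log2 scale over both genotypes (SE 0.21, limma adjusted p = 0.0296), but the coefficient was 0.52 with median centring of the arrays (adjusted p = 0.0333, within a range of 0.00251 to 0.773 over the alternatives), so its direction depends on the scaling.

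Il23a (1419529_at) encodes p19, the subunit of IL-23 that pairs with the p40 protein of Il12b. It read 130.2 and 98.6 units in irradiated and unirradiated KO-labelled cells, and 122.2 and 87.5 units in irradiated and unirradiated WT cells. Both irradiated samples were above both unirradiated ones, by 0.40 in KO-labelled and 0.48 in WT cells on the log2 scale, and the responses differed by -0.08. The limma coefficient was 0.44 (SE 0.19, adjusted p = 0.0651) as deposited, and 1.48 with quantile normalization (adjusted p = 0.000333, within a range of 0.000112 to 0.247 over the alternatives). Il12b, named after its values were seen, was below the floor on all 4 arrays, at 18.5 units or less.

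Across the 7 genes tested, a change of 2-fold or more after UVB was seen upward for 0 and downward for 3 in KO-labelled cells (Csf1, Il24 and Tslp), against 0.167% and 39.3% of all genes tested. In WT cells 1 was higher (Tnf) and 1 lower (Csf1), against 0.58% and 34.8%. With quantile normalization, which let Csf2 past the filter through its 1 high array, the split was 3 higher (Tnf, Lif, Il23a) and 1 lower of 8 in KO-labelled cells, where 4.06% and 8.38% of all genes were called. In WT cells it was 5 higher, with Csf2 and Il24 added, and 1 lower, where 5.33% and 9.66% were called. The limma fit called 1 member higher (Tnf) and 2 lower (Csf1 and Tslp), against 0.703% and 69.4% of genes. With quantile normalization it called 3 higher (Tnf, Lif, Il23a) and 1 lower (Csf1), against 20.4% and 20.6%. The UVB responses of Tnf, Lif and Il23a were above 0 and those of Csf1 below 0 in both genotypes under these scalings and median centring. Csf3 turned from below to above 0 in both genotypes with each of the other scalings, at 0.10 in KO-labelled and 0.68 in WT cells with quantile normalization. Their median log2 difference as deposited was -0.87 in KO-labelled cells, beside -0.82 for all genes, and 0.36 in WT cells, beside -0.70. The limma p-values rest on 1 residual degree of freedom of the gene itself, the disagreement of the 2 genotypes' responses. In the main fit a further 8.13 prior degrees of freedom were drawn from the residuals of all genes tested. These p-values describe no spread between cultures.

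**Figure D3:**
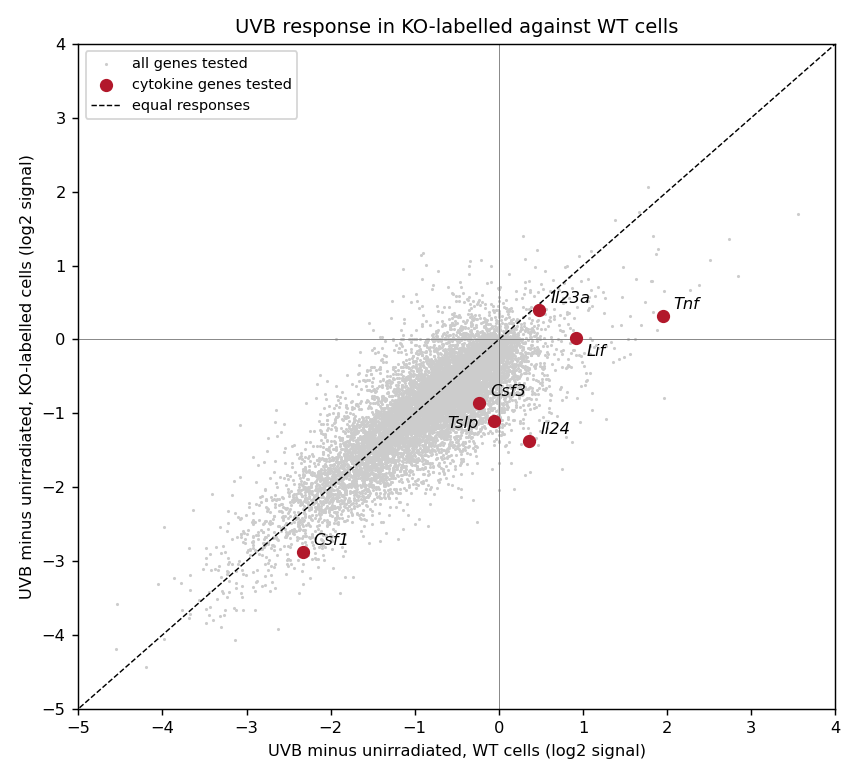
Log2 difference of irradiated minus unirradiated signal in KO-labelled cells (vertical) against WT cells (horizontal), with 11379 genes as grey points, the 7 tested cytokine genes in red and equal responses as a dashed line. All 7 lie below the dashed line as deposited, where the median difference of responses over all genes tested is also below 0, at -0.08. The share of all genes below the line was not counted. Il24, Tnf and Tslp lie farthest from it and Il23a next to it, and Tnf's horizontal position is a lower bound. The difference becomes 0.02 for Csf1 with the mean over probe sets and 0.01 for Il23a with quantile normalization.

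After UVB, 2 of the 7 genes (Il24 and Tnf) lay 2-fold or more below WT in KO-labelled cells, a call made for 1.47% of all genes, and 0 lay as far above, against 1.41%. The difference was negative for 6 of 7, Il23a being the exception at 0.09. For Csf1 the sign rests on its brightest probe set, and the mean over its probe sets gave 0.11. Without irradiation 0 of 7 passed 2-fold in either direction, against 1.63% of genes higher and 0.729% lower. There the 7 differences were between 0.04 (Lif) and 0.38 (Tnf, a lower bound), all positive as deposited, although Lif was at -0.13 with quantile normalization, and their median of 0.28 stood beside 0.16 for all genes. The difference of the UVB responses reached 2-fold for 3 of 7 (Il24, Tnf and Tslp) as deposited, all with the lower response in KO-labelled cells, against 2.94% of genes in that direction and 1.34% in the other. With quantile normalization and median centring Il24 kept this call, at -1.55 and -1.68, and Tslp lost it, at -0.85 and -0.99. For Tnf both unirradiated values lay below the floor there, so its response difference had no sign. The genotype comparisons after UVB, without irradiation and of the responses share arrays and do not support each other independently. With limma's genotype term, 0 of 7 passed in either direction, against 0.967% of genes higher and 0.642% lower, and 0 of 7 had an unadjusted p under 0.05.

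Since no group has a second array, the members were set beside genes of similar signal, which are not replicates. Of 3830 genes with mean signal from 24.9 to 100 units, the middle 90% had KO-labelled minus WT differences after UVB between -0.68 and 0.79. Tnf at -1.25 and Lif at -0.86 lay outside this range, and Csf3 at -0.34 and Csf1 at -0.27 inside. Values below the floor were raised to it among these genes too, which can shrink a difference and narrow the range. The median difference among them was 0. For 4250 genes from 100 to 400 units the range was -0.58 to 0.73, with Il24 at -1.39 outside it and Il23a at 0.09 inside. For 2400 genes from 400 to 1600 units it was -0.47 to 0.58, and Tslp at -0.78 lay outside. For the difference of the responses, Tnf, Il24 and Tslp lay below their ranges, whose lower ends were -1.05, -0.73 and -0.56, while Lif at -0.90 was inside its own.

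**Figure D4:**
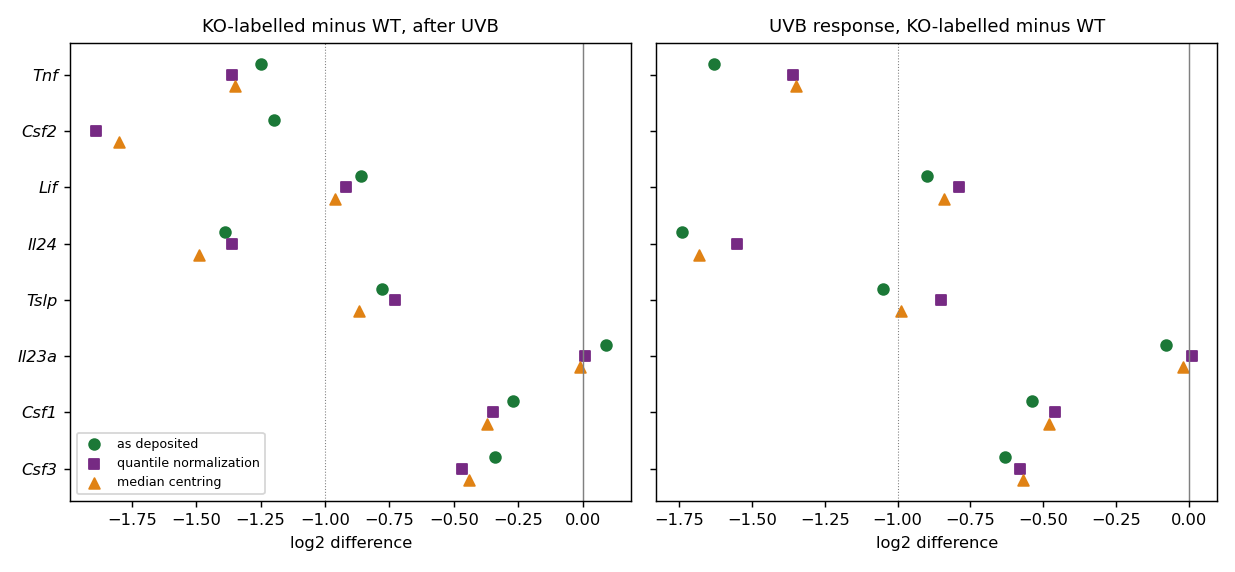
Log2 difference of KO-labelled minus WT signal after UVB (left) and of the UVB response in KO-labelled minus WT cells (right) for each gene, as deposited, with quantile normalization and with median centring; a dotted line marks a 2-fold lower value. Lif, Il24 and Tslp stay below 0 on both sides under all 3 scalings, Tnf does so on the left, and Il23a stays within 0.1 of 0. Csf2 on the left is a bound from KO-labelled values below the floor and is not drawn on the right. With the 2 other scalings both unirradiated Tnf values lie below the floor, so the Tnf points on the right repeat those on the left and give no sign for the response difference.

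The genes nearest to each tested member over the 4 arrays were found by Euclidean distance of log2 signal centred on its mean, among 10966 named genes. Values below the floor were raised to it first. Nearest to Tnf were Ereg (distance 0.29), which encodes the EGF receptor ligand epiregulin, Sertad1 (0.42) and Tubb2a (0.44). These distances depend on the floor, because Tnf in unirradiated WT cells, at 7.77 units, was raised to it. Ereg read 165.4 and 144.3 units in irradiated and unirradiated KO-labelled cells and 432.8 and 134.0 units in irradiated and unirradiated WT cells. Nearest to Lif were Junb (0.10), an AP-1 subunit, Polr2a (0.10), the largest subunit of RNA polymerase II, and Cdkn1a (0.14), the cell cycle inhibitor p21. Nearest to Il24 were Upk1a, Ttc12 and Csrnp1, at 0.23 to 0.25, and nearest to Tslp were Zfp526, Zfp385a and Dusp23, at 0.04 to 0.07. Upk1a, Ttc12, Zfp526 and Dusp23 were raised to the floor in irradiated KO-labelled cells. Csf1 was nearest to Ssh2, Zbtb1 and Metrnl, Csf3 to Xrcc1, Tox4 and Gas2l1, and Il23a to Acyp1, Npl and Prss44. Prss44 was raised to the floor in unirradiated WT cells. With 4 arrays many genes share a profile, and such likeness is a description.

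**Figure D5:**
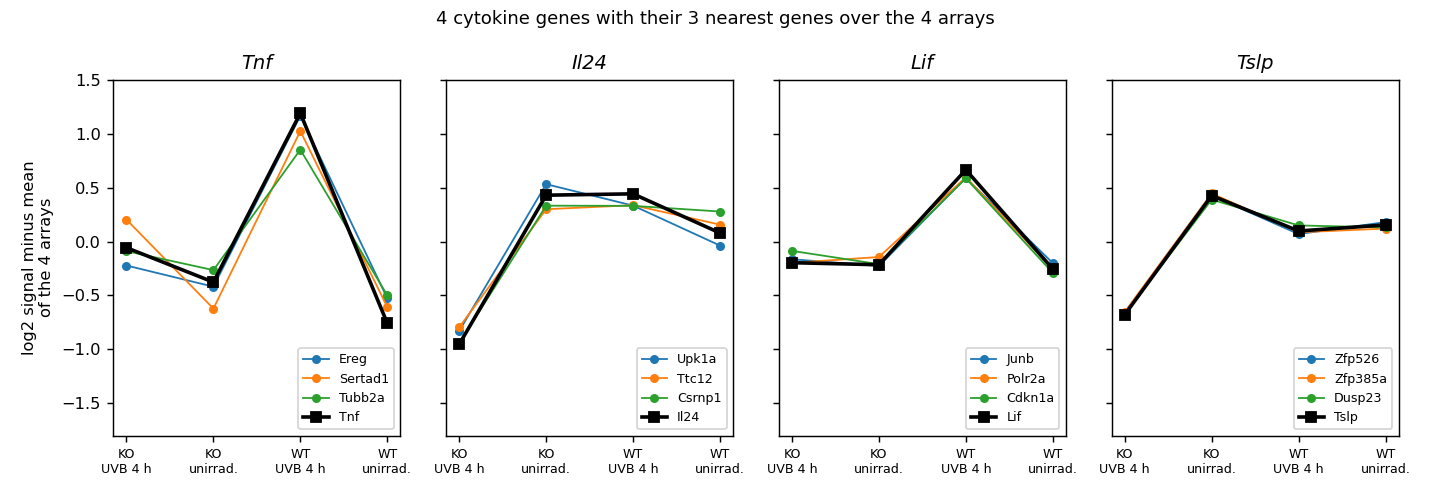
Log2 signal minus its mean over the 4 arrays for Tnf, Il24, Lif and Tslp (black squares) and the 3 genes nearest to each (coloured points), in KO-labelled cells after UVB and unirradiated and WT cells after UVB and unirradiated. Values below the floor are drawn at the floor. These are Tnf in unirradiated WT cells and Upk1a, Ttc12, Zfp526 and Dusp23 in irradiated KO-labelled cells. The Tnf and Lif panels peak in irradiated WT cells, with Ereg, Sertad1 and Tubb2a or Junb, Polr2a and Cdkn1a, and the Il24 and Tslp panels dip in irradiated KO-labelled cells.

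Other ligands of the same families were mostly dim. Of 24 listed, 20 were on the array and 11 of these stayed below the floor on all 4 arrays. Of the 5 tested, 0 rose and 2 fell in the limma fit of irradiation, beside 0.703% and 69.4% of all genes. Ctf1, the gp130 ligand cardiotrophin 1, fell by 1.82 on the log2 scale (adjusted p = 0.00027), and Clcf1, another gp130 ligand, fell by 0.80 (adjusted p = 0.0182), each with its value in irradiated KO-labelled cells raised to the floor. Clcf1 read 24.4 and 51.1 units in irradiated and unirradiated KO-labelled cells, below 61.6 and 91.5 units in irradiated and unirradiated WT cells. Il34, the other ligand of the Csf1 receptor, and Osm, oncostatin M, had limma adjusted p-values of 0.139 and 0.202.

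Of 18 receptor chains for these ligands, 17 were on the array and 10 were tested, of which 1 rose and 6 fell after UVB, beside 0.703% and 69.4% of all genes. Crlf2, the TSLP receptor chain, rose by 0.36 (adjusted p = 0.0314) and read 683.2 and 504.3 units in irradiated and unirradiated KO-labelled cells, against 366.1 and 300.8 units in irradiated and unirradiated WT cells. Its partner Il7r, named after its values were seen, stayed below the floor on all 4 arrays. Il20rb, the IL-24 receptor chain, fell by 1.88 (adjusted p = 0.000189) with 1 value raised to the floor, Tnfrsf1a, which encodes TNFR1, fell by 1.41 (adjusted p = 2.4e-05), and Osmr, the oncostatin M receptor, fell by 1.27 (adjusted p = 0.000591). Csf1r, the receptor of M-CSF, read 44.6 and 77.4 units in irradiated and unirradiated KO-labelled cells and 64.1 and 79.7 units in irradiated and unirradiated WT cells (adjusted p = 0.0628). These adjusted p-values are from limma's irradiation term.

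Of 24 signal transducers, 22 were on the array and 21 were tested, and 18 fell and 0 rose in the limma fit, beside 69.4% of all genes falling. Itch, a ubiquitin ligase, fell by 2.19, the kinase Jak2 fell by 1.92 and the TNF receptor adaptor Traf2 fell by 1.86, with limma adjusted p-values of 1.17e-05, 3.05e-05 and 6.26e-05. Cish, a feedback inhibitor of cytokine receptors that STAT5 induces, had the largest difference of responses among the listed transducers at or above the floor on all arrays. It read 235.9 and 284.4 units in irradiated and unirradiated KO-labelled cells, and 909.0 and 336.9 units in irradiated and unirradiated WT cells. Its response was -0.27 in KO-labelled and 1.43 in WT cells, a difference of -1.70, with irradiated WT cells the highest, as for Tnf, Csf2 and Lif. Fadd and Birc2, of death receptor signalling, followed at 0.57 and -0.54.

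Markers of other cell types differed between the genotypes beside these results. Fibroblast markers were higher in KO-labelled cells in 6 of 9 cases in the limma genotype fit, with a summed signal of 5098 and 7430 units in irradiated and unirradiated KO-labelled cells, against 3016 and 3815 units in irradiated and unirradiated WT cells. Of all genes tested, 0.967% were higher by this term. No gene passed for genotype without limma's intensity trend, with the mean over probe sets or with genotype as the only factor, so these 6 calls were lost there; 1985 genes had an unadjusted p under 0.05 in the fit with the trend. Col3a1, Vim and Col1a2 were the brightest. The 7 melanocyte markers summed to 5620 and 8582 units in KO-labelled cells and 4823 and 6148 units in WT cells, led by Tyrp1, Pmel and Dct, and 0 of them passed for genotype. Leukocyte markers had 7 of 13 below the floor on all arrays, including Ptprc, Cd207 and Cd3e, and summed to 468.5 and 604.9 units in KO-labelled and 683.6 and 671.5 units in WT cells. Cd68, Csf1r and Kit led that list, Kit through 112.1 units in unirradiated KO-labelled cells. Kit is not specific to leukocytes, and Cpa3 and Mcpt4 of the same list were also below the floor on all arrays. The cells behind the Kit signal were not tested. Endothelial markers, led by Cldn5, Kdr and Cdh5, reached the floor for 3 of 6 genes on at least 1 array. The part of these cells in the cytokine differences was not tested, and fewer cells of a type cannot be told apart from less RNA per cell.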

How the data were processed

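Signal was measured on 4 Affymetrix expression arrays, 1 per group. Per the submitters' processing notes, the authors summarised them with MAS5, and the deposited values are linear intensity units, 1 per probe set. Neither the MAS5 version, nor its scaling target, nor detection calls were known here, and depth has no counterpart on arrays. Groups come from the sample titles.

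Of 45101 probe sets, 34945 carry 1 gene symbol, 932 several and 9160 none, besides 64 controls. Names are those of the platform annotation, of which 34741 were found by gene ID in RefSeq with 0 changed. A gene is its probe set of highest mean signal. Values were raised to a floor, the median over probe sets of mean signal, 24.9 units, before log2 was taken. A fold against a lower value is given as at least that fold, and a difference counts as called at 2-fold. Irradiation and genotype entered limma 3.58.1 in R 4.3.3 as additive terms (intensity trend, Benjamini-Hochberg at 0.05) for the 11379 genes whose mean reached the floor. The code of the fit was run on simulated data with independent errors, few changed genes and equal responses in both genotypes. In the data themselves most genes fell and the responses can differ, so that run does not show how well the p-values hold here.

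The genes named are the 9 members, up to 3 per direction and 3 by response difference from each of 3 lists, the 3 nearest genes of each member, Mapk14 and the brightest markers. The members, lists and motifs were chosen with earlier results of these data known. Alternatives were quantile normalization, median centring, floors at the 25th and 75th percentile, 1.5-fold and 3-fold thresholds, the mean over probe sets, no cross-hybridising probe sets, limma without the trend or with only the tested factor, and leaving out each array in turn.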

Additional observations from a re-analysis of the deposited data

Results flagged for a closer look

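For 6 cytokine genes, as deposited and by the brightest probe set, the KO-labelled cells were above WT cells without irradiation and below them after UVB. Each condition has 1 array per genotype and the difference was not tested. The change between the conditions was -1.74 in log2 for Il24, -1.63 or lower for Tnf, -1.05 for Tslp, -0.90 for Lif, -0.63 for Csf3 and -0.54 for Csf1. The changes of Lif, Csf3 and Csf1 lay inside the middle 90% of genes of similar signal, whose lower end was -1.05. Over all genes tested, the median of KO-labelled minus WT was 0.16 without irradiation and 0.05 after UVB. The share of all genes with such a change of sign was not counted. Lif without irradiation differed by only 0.04, and with quantile normalization by -0.13, so its sign there depends on the scaling. For Tnf without irradiation, both values lay below the floor under quantile normalization or centring, which left a difference of 0. Csf1 follows the pattern only on its brightest probe set: with the mean over its probe sets KO-labelled minus WT was 0.11 after UVB and 0.09 without irradiation, a change of 0.02. Il24 also moved in opposite directions with UVB, at -1.38 in KO-labelled and 0.36 in WT cells.

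Among genes of the same pathways, the genotype difference changed sign between conditions in the same, untested way for Ctf1 (-0.82), Il20rb (-0.55), Birc2 (-0.54) and Tnfrsf1a (-0.27), and the other way for Traf2 (0.18). Cish had opposite responses to UVB, with a difference of -1.70, which was not tested either.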

How the results depend on the processing

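The lower signal of Tnf, Lif, Il24 and Tslp in KO-labelled cells after UVB kept its sign as deposited, with quantile normalization and with median centring, whereas the UVB responses of Tslp and Csf3 did not keep theirs. Tslp turned to 0.03 in KO-labelled and 1.01 in WT cells with centring, and its limma coefficient to 0.07 with quantile normalization (adjusted p = 0.773) and 0.52 with centring. Each count of members below is followed by the share of all genes called in that setting. With the higher floor only 2 members, Il24 and Tslp, were tested, so its counts are out of 2. For UVB in KO-labelled cells, quantile normalization gave 3 higher (4.06%) and 1 lower (8.38%), centring 3 (8.71%) and 1 (6.71%), and 1 was lower with the higher floor (32.3%) and at 3-fold (16.2%). In WT cells 5 were higher with quantile normalization (5.33%), 6 with centring (11%), 2 with the lower floor (1.86%) and 2 at 1.5-fold (1.37%), and with the higher floor 0 were higher (0.559%) and 0 lower (27.3%). In KO-labelled against WT cells after UVB, 4 were lower at 1.5-fold (5.26%), 0 at 3-fold (0.404%) and 0 with the higher floor (1.07%). There 3 were lower with quantile normalization (2.78%), centring (2.96%) and the lower floor (4.3%), 1 of them Csf2, which passed the filter through its high array. Without irradiation the lower floor gave 1 higher (Tnf, 6.22%) and 1 lower (Csf2, 3.1%). The difference of responses had 5 lower at 1.5-fold (11.4%), 2 at 3-fold (0.448%), 4 with the lower floor (9.9%) and 2 with the higher floor (0.808%). It had 3 lower with quantile normalization (2.75%) and with centring (2.84%), namely Il24, Tnf and Csf2, without Tslp. Under these scalings Csf2 rests on KO-labelled values below the floor, and Tnf on unirradiated values below it. In the limma irradiation fit, quantile normalization called 3 higher (20.4%) and 1 lower (20.6%), centring 4 (37.1%) and 1 (15.6%), the higher floor 0 (0.897%) and 1 (79.3%), and the mean over probe sets 2 (0.645%) and 1 (69.8%). Without the trend it called 1 higher (0.615%), now Il23a (adjusted p = 0.0489) and not Tnf (0.0645), and 1 lower (65.8%), with Tslp at 0.135. With only the tested factor it called 0 higher (0.352%) and 1 lower (59.3%). Leaving out 1 array with only the tested factor moved the irradiation coefficients. Such a fit leaves 1 arm with 1 array, assumed to vary like the other arm, so a call can follow from that array alone. Without irradiated KO-labelled cells the coefficient was 1.76 for Tnf, 0.90 for Lif and 0.19 for Il24. Without irradiated WT cells it was 0.51 for Tnf, 0.04 for Lif and -1.21 for Il24. For Csf1 it was -2.47 without unirradiated KO-labelled cells. The additive model on 3 arrays has no residual degree of freedom. The floors change how many members are tested, and quantile normalization and centring added Csf2 to them. Any other cause of these changes was not tested. No paired analysis was possible because each group has 1 array and the labels give no replicate numbers. Values near the floor limit Tnf, Csf2, Csf3 and Csf1.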
